A study of Mus musculus with 4 samples.

Results

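Cholesterol synthesis genes and other targets of the transcription factor SREBP2 were examined in the gastrocnemius of the mouse, a large muscle of the lower leg. The genes were a set of 8 listed by name (Srebf2, Hmgcs1, Sqle, Idi1, Insig1, Fdft1, Cyp51 and Lss), all of the sterol pathway or its control. The rule uses no measured value, but the list was drawn up with earlier results of these data known. Of these 8, 7 were read by a transcript cluster that carries a single gene symbol, out of 22180 such genes in all. The only listed cluster of Idi1, the isopentenyl diphosphate isomerase, also carries the symbol Gm13502, so no value is given for it. Each of the other 7 genes had 1 cluster.

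The study hybridised muscle RNA to 4 Affymetrix arrays, 1 per group. The groups were mice with a KLF15 deletion restricted to skeletal muscle (KO) given streptozotocin (STZ), KO mice given vehicle, wild-type (WT) mice given STZ, and WT mice given vehicle. STZ destroys pancreatic beta cells and so lowers insulin. Per the labels' protocols it was injected into the peritoneum, on 5 consecutive days and at 50 mg/kg, the vehicle was sodium citrate, and muscle was collected 3 weeks after treatment. The sources used here do not give the strain, sex, age, Cre driver or number of animals behind each array.

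SREBP2, encoded by Srebf2, is made as a precursor held in the endoplasmic reticulum membrane. When membrane sterol is low, its escort protein SCAP carries it to the Golgi, where proteases release the part that enters the nucleus and switches on genes of cholesterol synthesis and uptake. When sterol is high, INSIG proteins hold SCAP and the precursor back. Srebf2 and Insig1 are themselves targets of this system. SREBP1c, made from Srebf1, is the related factor that responds to insulin and drives fatty acid synthesis.

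Promoter windows from RefSeq (build GRCm38.p6, 250 bases before to 50 after the start site) were found for 6 of the 8 genes. None was found for Sqle and Fdft1, and the 6 include Idi1, which has no array value here. The windows of Srebf2 (chr15:82147019-82147318, plus strand), Hmgcs1 (chr13:119690101-119690400, plus strand) and Cyp51 (chr5:4104648-4104947, minus strand) are shown. The first 2 hold the core letters of a sterol regulatory element, the DNA element that SREBP factors bind, and Cyp51 is the member with the widest range over the arrays. Each is written 5′ to 3′ along the gene. Capitals mark the core letters TCACNCCA and the letters CCAAT, read on either strand. Only exact matches were sought, so a window without marked core letters, such as that of Cyp51, may still hold a variant of the element.
Srebf2: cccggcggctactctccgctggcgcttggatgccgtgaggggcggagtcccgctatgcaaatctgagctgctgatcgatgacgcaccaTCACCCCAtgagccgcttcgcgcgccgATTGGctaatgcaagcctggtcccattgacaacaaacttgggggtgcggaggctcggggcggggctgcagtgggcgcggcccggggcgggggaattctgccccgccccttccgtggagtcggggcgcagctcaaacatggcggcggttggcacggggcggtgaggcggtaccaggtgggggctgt
Hmgcs1: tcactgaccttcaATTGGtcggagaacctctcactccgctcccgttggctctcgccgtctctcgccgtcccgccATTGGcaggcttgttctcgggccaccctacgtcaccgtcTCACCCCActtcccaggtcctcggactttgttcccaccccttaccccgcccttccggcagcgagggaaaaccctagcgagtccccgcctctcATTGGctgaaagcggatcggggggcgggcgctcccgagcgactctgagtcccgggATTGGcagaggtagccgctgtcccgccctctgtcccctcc
Cyp51: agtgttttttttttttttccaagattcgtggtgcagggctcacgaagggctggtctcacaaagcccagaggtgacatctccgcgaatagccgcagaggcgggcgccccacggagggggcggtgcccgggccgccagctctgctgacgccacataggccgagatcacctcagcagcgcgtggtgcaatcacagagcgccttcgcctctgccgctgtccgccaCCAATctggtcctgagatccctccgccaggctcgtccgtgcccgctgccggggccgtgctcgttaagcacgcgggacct

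Counted from the start site, the core letters ran from -162 to -155 in Srebf2 and from -137 to -130 in Hmgcs1. They lay in 2 of the 6 members' windows, against 4.36% of 32851 windows of the same length. In the wider lists they lay in 2 of 21 windows of sterol enzymes and 1 of 18 of SREBP regulators. These lists contain members: the enzyme matches were Hmgcs1 and Msmo1, and the regulator match was Srebf2 itself. CCAAT, the letters bound by NF-Y, a factor known to act beside SREBP, lay in 6 of 6 members' windows, against 37.4% of all windows. It lay in 16 of 21 windows of sterol enzymes and 8 of 18 of SREBP regulators. CACCC, a short motif of the family of Kruppel-like factors to which KLF15 belongs, lay in 4 of 6 members' windows, against 57.5% of all. In the wider lists it lay in 14 of 21 and 15 of 18. The core letters TCACCCCA contain CACCC, so in Srebf2 and Hmgcs1 the matches overlap. These matches are descriptions of sequence, and binding was not measured.

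Values are linear intensities. Differences are on the scale of log2(intensity + 3.69), with percentile 25 of the deposited values added as an offset, and they understate the change of dim genes. With 1 array per group there is no replicate check, and no p-value or standard error can be given. Higher and lower describe single arrays. Precision is limited by this number of arrays. In whole muscle fewer cells of a type and less RNA per cell cannot be told apart. The intensity median of the arrays lay between 5.73 and 5.96. All 10 skeletal muscle markers were above the level filter (an intensity of 5.81), with summed intensities between 57615 and 59654. Klf15 had an intensity of 16.04 in KO STZ, 19.8 in KO vehicle, 72.1 in WT STZ and 50.5 in WT vehicle. Its signal was lower on the KO arrays but stayed above the level filter there.

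All 7 genes passed the level filter, and 0 of 7 reached 2-fold in any comparison. With an offset of 1 in place of 3.69, the difference between the STZ effects passed 2-fold in Sqle (1.09) and Cyp51 (-1.02). The range over the arrays was below the median range of all 13258 genes that passed (0.29) in Srebf2, Hmgcs1, Insig1 and Lss. Cyp51, Fdft1 and Sqle were above it, at percentiles 93.6, 92.1 and 87.1 of all ranges, in that order. KO STZ was the lowest array for 4 of the 7, and the share of all genes for which it was lowest was not counted. This array was also low for bright clusters in general. Percentile 95 of intensity was 179.4 in KO STZ, 188.6 in KO vehicle, 206.8 in WT STZ and 195.4 in WT vehicle. For KO against WT under STZ, 4950 of 7212 genes brighter than percentile 75 were below 0.

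Srebf2 had an intensity of 34.2 in KO STZ, 39.4 in KO vehicle, 41.2 in WT STZ and 39.3 in WT vehicle. The KO STZ array was the low one, and the other 3 lay close together. The log2 difference between STZ and vehicle was -0.19 in KO and 0.061 in WT, and between KO and WT it was -0.24 under STZ and 0.0046 under vehicle. Insig1, the sterol-responsive anchor of the SREBP precursor, had 56.5 in KO STZ, 62.2 in KO vehicle, 62.3 in WT STZ and 62.9 in WT vehicle. Its 4 arrays spanned 0.15 on the log2 scale, less than any other member. The STZ difference of Insig1 was -0.13 in KO and -0.013 in WT, and its KO difference was -0.13 under STZ and -0.015 under vehicle. Under quantile normalization the KO difference under STZ was 0.0027.

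Hmgcs1, the cytosolic synthase that makes HMG-CoA at the start of the mevalonate pathway, had an intensity of 107.6 in KO STZ, 111.4 in KO vehicle, 100.4 in WT STZ and 117.7 in WT vehicle. Both STZ arrays were below the vehicle array of their genotype, by a log2 difference of -0.049 in KO and -0.22 in WT. The KO value turned to 0.016 under quantile normalization and 0.017 under loess. The WT arrays spanned the range of Hmgcs1, and the KO arrays lay between them. KO against WT was 0.096 under STZ and -0.077 under vehicle.

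Fdft1 (squalene synthase) joins farnesyl diphosphate units into squalene, the first step committed to sterols. It had an intensity of 177.4 in KO STZ, 220.5 in KO vehicle, 268.1 in WT STZ and 249.7 in WT vehicle. Both KO arrays lay below both WT arrays. The log2 difference between KO and WT was -0.59 under STZ and -0.18 under vehicle. The STZ difference was -0.31 in KO and 0.10 in WT. The STZ value of the genotype difference stood just past 1.5-fold, and it was -0.40 under quantile normalization and -0.43 under loess. Genes brighter than percentile 75 as a whole had a median of -0.11 in that comparison.

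Sqle, the squalene epoxidase that is an oxygen-dependent control point of the pathway, had an intensity of 9.49 in KO STZ, 5.96 in KO vehicle, 6.87 in WT STZ and 10.07 in WT vehicle. KO STZ and WT vehicle were high, and KO vehicle and WT STZ were low. The STZ difference was 0.45 in KO and -0.38 in WT, and the difference between these effects was 0.83. KO stood above WT under STZ (0.32) and below it under vehicle (-0.51). Lss, the lanosterol synthase that closes the sterol rings, had 6.58 in KO STZ, 7.14 in KO vehicle, 6.89 in WT STZ and 8.30 in WT vehicle. WT vehicle was the high array, and the STZ difference was -0.077 in KO and -0.18 in WT. The KO difference was -0.043 under STZ and -0.15 under vehicle.

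Cyp51, the lanosterol 14-alpha-demethylase, had an intensity of 7.01 in KO STZ, 8.32 in KO vehicle, 11.1 in WT STZ and 5.93 in WT vehicle. WT STZ was the high array and WT vehicle the low one, with both KO arrays between them. The STZ difference was -0.17 in KO and 0.62 in WT, and the difference between these effects was -0.79. KO stood below WT under STZ (-0.47) and above it under vehicle (0.32). Sqle and Cyp51, which act close together in the pathway, stood on opposite sides of 0 in each of the 4 pairwise comparisons. Sqle, Cyp51 and Lss were dimmer than percentile 75 of all clusters (an intensity of 19.5), where the offset has most weight. The WT value of Cyp51 was 0.81 with an offset of 1 and 0.53, under 1.5-fold, with the offset at percentile 50.

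**Figure D1:**
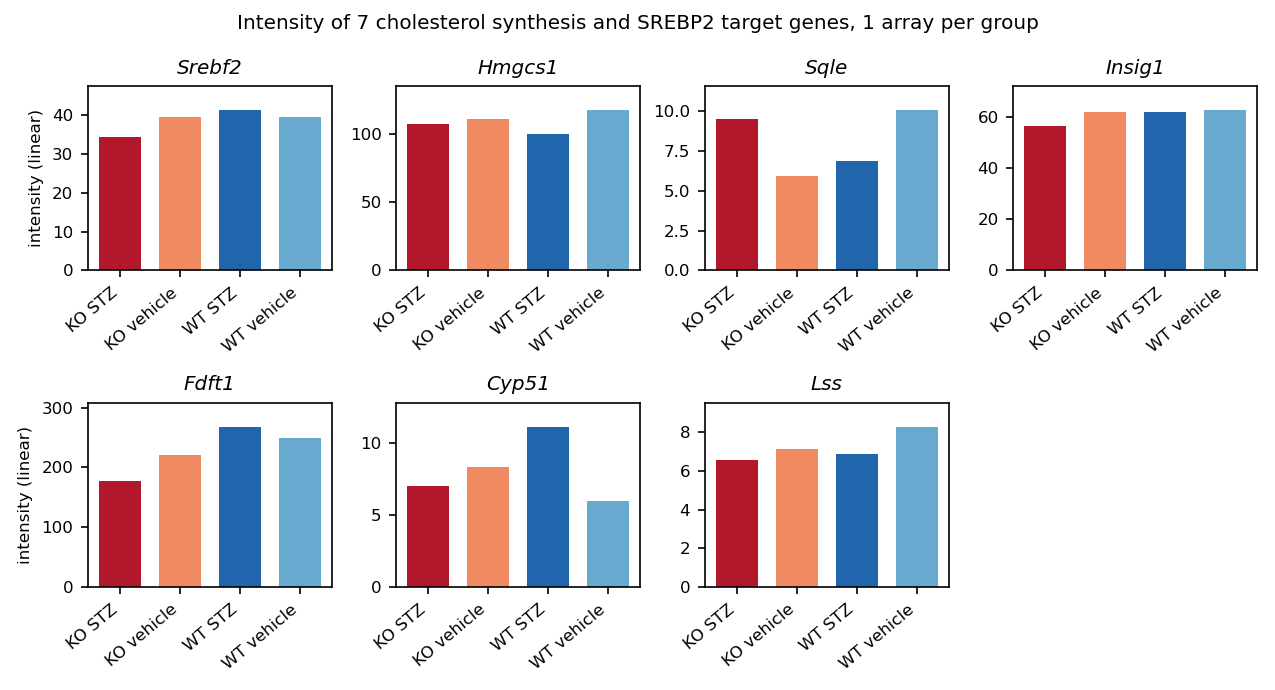
Linear intensity of each of the 7 genes (one panel each, vertical axis from 0) on the arrays KO STZ, KO vehicle, WT STZ and WT vehicle, 1 bar per array and no error bars because each group has 1 array. Fdft1 was 177.4 in KO STZ and 268.1 in WT STZ, Insig1 lay between 56.5 and 62.9 on all 4 arrays, and Cyp51 was 11.1 in WT STZ and 5.93 in WT vehicle.

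The first comparison was STZ against vehicle in KO muscle. The 7 genes had a median log2 difference of -0.13, against -0.032 over all 13258 genes. Values below 0 were found in 7553 of all 13258 genes and in 6 of the 7. None was past 1.5-fold: 0 of 7 were higher, against 0.445% of all genes, and 0 of 7 were lower, against 0.656% of all genes. The highest was Sqle at 0.45 and the lowest Fdft1 at -0.31.

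STZ was then compared with vehicle in WT muscle. The median of the 7 genes was -0.013, against 0.0075 over all genes. Of the 7, 1 was at least 1.5-fold higher (Cyp51), against 1.27% of all genes, and 0 were at least 1.5-fold lower, against 0.445% of all genes. Of the 7, 3 values were above 0 and 4 below, with Sqle the lowest at -0.38. Over all 13258 genes, 6831 were above 0 and 6397 below.

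KO and WT muscle were compared under STZ and under vehicle. Under STZ the median of KO against WT was -0.13, against -0.048 over all genes. Of the 7, 1 was at least 1.5-fold lower (Fdft1), against 2.81% of all genes, and 0 were higher, against 0.845% of all genes. Under vehicle the median was -0.077, against -0.0039 over all genes. There 0 of 7 were higher at 1.5-fold, against 0.581% of all genes, and 0 of 7 lower, against 0.777% of all genes. Sqle was the lowest at -0.51 and Cyp51 the highest at 0.32. These 4 comparisons share arrays in pairs, so their values for a gene are not independent.

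The difference between the STZ effects (KO less WT) had a median of -0.12 over the 7 genes, against -0.048 over all genes. Of the 7, Sqle was at least 1.5-fold higher, against 1.76% of all genes, and Cyp51 at least 1.5-fold lower, against 3.91% of all genes. Both are dim genes with values on opposite sides. Of genes between percentiles 50 and 75 of level, 5.46% were past 1.5-fold either way in this comparison.

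**Figure D2:**
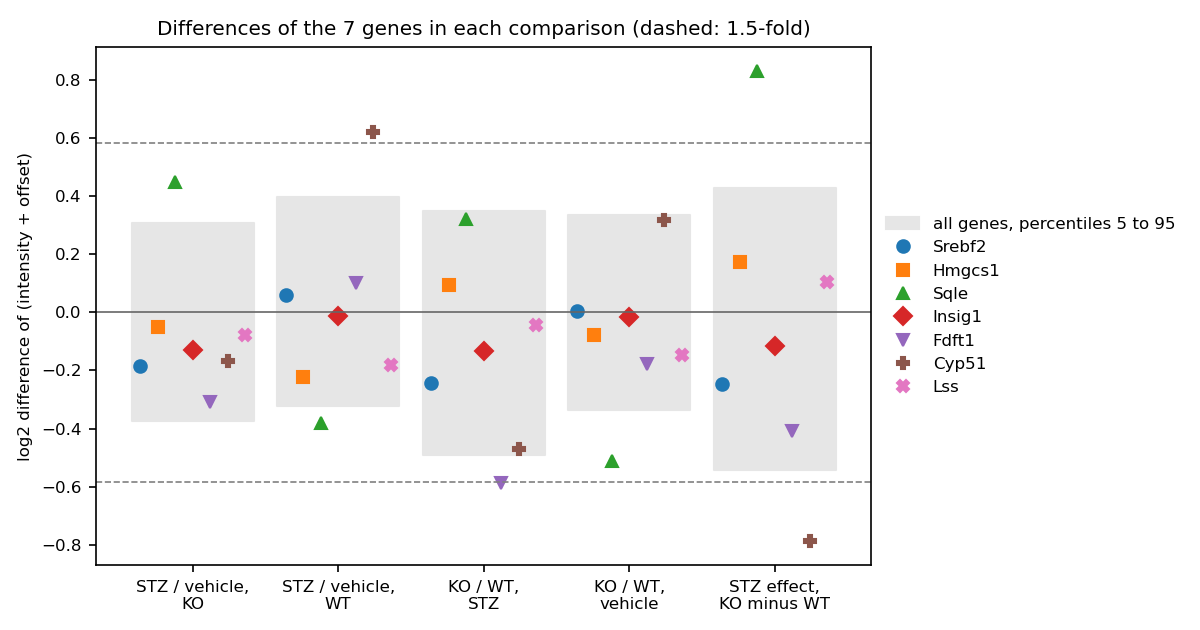
Log2 difference of (intensity + 3.69) for each of the 7 genes (symbols) in the 5 comparisons (horizontal axis). Grey boxes span percentiles 5 to 95 of all 13258 genes, and dashed lines mark 1.5-fold. Cyp51 at 0.62 (STZ in WT), Fdft1 at -0.59 (KO against WT, STZ) and, for the difference between the STZ effects, Sqle at 0.83 and Cyp51 at -0.79 are at or past the lines.

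Nearly all other enzymes of the sterol pathway also stood within 1.5-fold in every comparison. Of 23 enzymes of the mevalonate and sterol steps, 19 were measured and all 19 passed the level filter. These 19 include the members Hmgcs1, Sqle, Fdft1, Cyp51 and Lss. The calls of Cyp51 and Fdft1 below repeat those given above, and the medians reuse the members' values. For STZ against vehicle in KO, 0 of 19 were past 1.5-fold either way, against 1.1% of all genes. The median was -0.049, with 7 above 0 and 12 below, where 5678 of all 13258 genes were above and 7553 below. In WT 1 of 19 (Cyp51) was past 1.5-fold, against 1.72% of all genes. The median was 0.10, with 10 above 0 and 9 below, where 6831 of all genes were above and 6397 below. For KO against WT, 1 of 19 was past 1.5-fold under STZ (Fdft1), against 3.65% of all genes, and 1 of 19 under vehicle (Hsd17b7), against 1.36%. These counts past 1.5-fold are near what those percentages give for 19 genes. For KO against WT the medians were -0.024 under STZ and -0.086 under vehicle. Early enzymes (7 measured of 10 listed) and late enzymes (12 of 13) had medians of -0.14 and 0.12 for STZ in WT, and of -0.049 and -0.061 for STZ in KO.

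Hsd17b7, a ketosteroid reductase of the late sterol steps, was the only other enzyme past 1.5-fold in any comparison. Its intensity was 13.7 in KO STZ, 10.3 in KO vehicle, 21.2 in WT STZ and 17.8 in WT vehicle. Both KO arrays lay below both WT arrays, at a log2 difference of -0.52 under STZ and -0.62 under vehicle. With the offset at percentile 50 the vehicle value was -0.55, under 1.5-fold. Named after the values were seen, Sc5d, the lathosterol desaturase, stood at -0.086 for KO against WT under STZ and -0.47 under vehicle. Dhcr7, which makes cholesterol from 7-dehydrocholesterol, stood at -0.16 under STZ and 0.34 under vehicle and was also named after the values were seen.

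**Figure D3:**
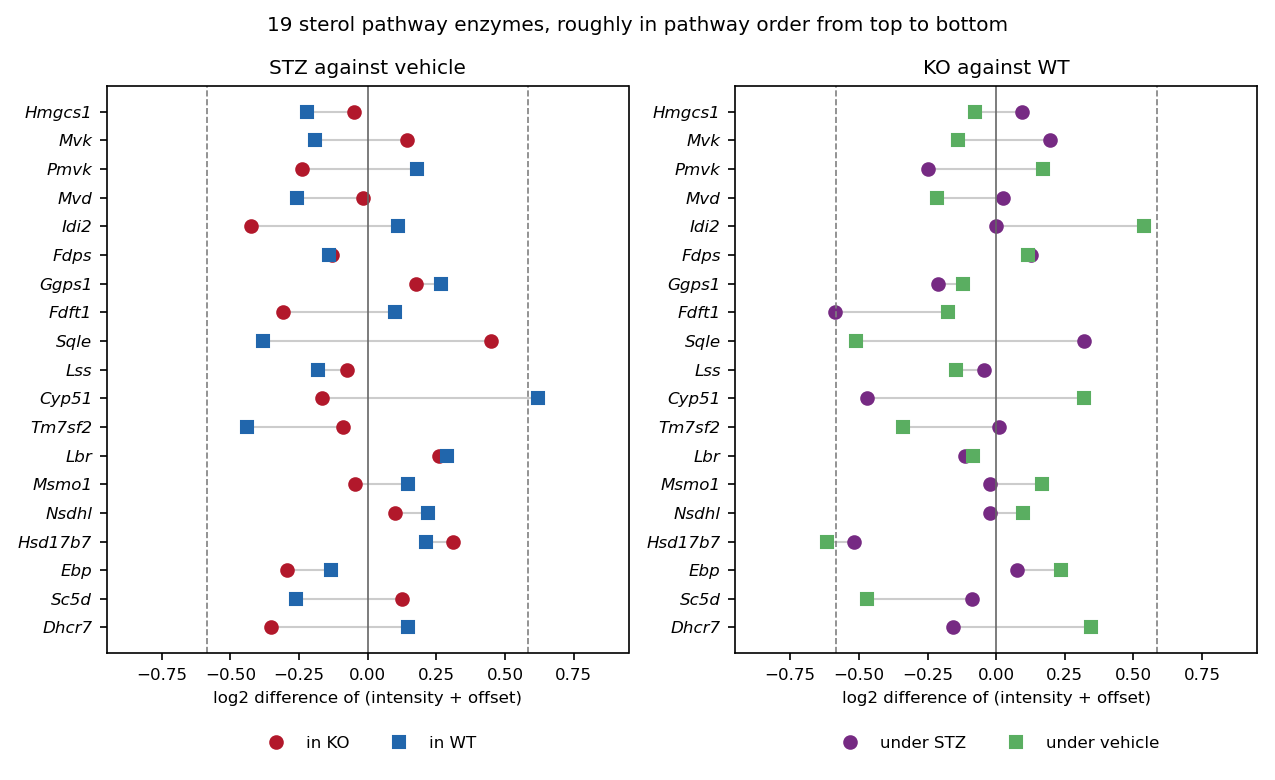
Log2 difference of (intensity + 3.69) for 19 sterol pathway enzymes, roughly in pathway order from top to bottom. The left panel gives STZ against vehicle in KO (circles) and WT (squares), the right panel KO against WT under STZ (circles) and vehicle (squares), and dashed lines mark 1.5-fold. Values lie on both sides of 0 in each panel, and Fdft1, Hsd17b7 and Cyp51 reach the lines.

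Of 13 listed regulators of the SREBP system 11 were measured, and 0 were past 1.5-fold in any of the 4 pairwise comparisons, where 1.1% of all genes were for STZ in KO, 1.72% for STZ in WT, 3.65% for KO against WT under STZ and 1.36% under vehicle. With shares this low, a count of 0 is not particular to the list. The medians were -0.082 for STZ in KO, -0.024 for STZ in WT, -0.13 for KO against WT under STZ and -0.015 under vehicle. The list contains the members Srebf2 and Insig1, and both KO against WT medians are the values of Insig1. The members' own median under STZ is that same value of Insig1, so the 2 medians are not separate results. Srebf1 had an intensity of 32.8 in KO STZ, 49.3 in KO vehicle, 48.1 in WT STZ and 51.6 in WT vehicle. KO STZ was the low array, as it was for Srebf2, and the other 3 lay close together. The STZ difference of Srebf1 was -0.54 in KO and -0.093 in WT, and the KO difference was -0.50 under STZ and -0.060 under vehicle. Of 13 listed genes of cholesterol uptake and transport 10 were measured, and 1 (Npc1) was past 1.5-fold for STZ in KO, against 1.1% of all genes. None was in the other 3 pairwise comparisons, against 1.72% for STZ in WT and, for KO against WT, 3.65% under STZ and 1.36% under vehicle. Npc1, which moves cholesterol out of lysosomes, had an intensity of 134.3 in KO STZ, 221.2 in KO vehicle, 169.7 in WT STZ and 202.2 in WT vehicle. Both STZ arrays were lower than the vehicle array of their genotype, at -0.70 in KO and -0.25 in WT. With the mean of its 2 clusters, of which the other is dim, the KO value was -0.32.

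A mixed list of cholesterol efflux genes and other genes linked to the sterol receptor LXR had 8 measured of 9 listed. In each of the 5 comparisons 0 of these 8 were past 1.5-fold, where between 1.1% and 5.67% of all genes were. The list medians were 0.014 for STZ in KO and 0.076 for STZ in WT. Abca1, the main cellular cholesterol exporter, lay between intensities of 62.9 and 64.4 on the 4 arrays, and is named after its values were seen. Of 10 listed genes of the ubiquinone and dolichol branch, which shares its isoprenoid precursors with sterols, 9 were measured and 0 were past 1.5-fold in any comparison, against the same shares.

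In the fatty acid arm driven by SREBP1c, 2 of 14 measured genes (15 listed) were past 1.5-fold for STZ in KO, against 1.1% of all genes, and 2 of 14 in WT, against 1.72% of all genes. They were Fasn and Scd1 in both genotypes. Fasn, the fatty acid synthase, had an intensity of 32.04 in KO STZ, 70.9 in KO vehicle, 37.6 in WT STZ and 70.1 in WT vehicle. Scd1, the stearoyl-CoA desaturase, had 140.8 in KO STZ, 395.7 in KO vehicle, 188.5 in WT STZ and 291.2 in WT vehicle. For both genes, both STZ arrays lay below both vehicle arrays. The STZ difference of Fasn was -1.06 in KO and -0.84 in WT, and that of Scd1 -1.47 in KO and -0.62 in WT. The other 12 genes of this arm were within 1.5-fold in both genotypes, and the list median was -0.15 in KO and -0.026 in WT. Whether the 2 arms differ was not tested.

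**Figure D4:**
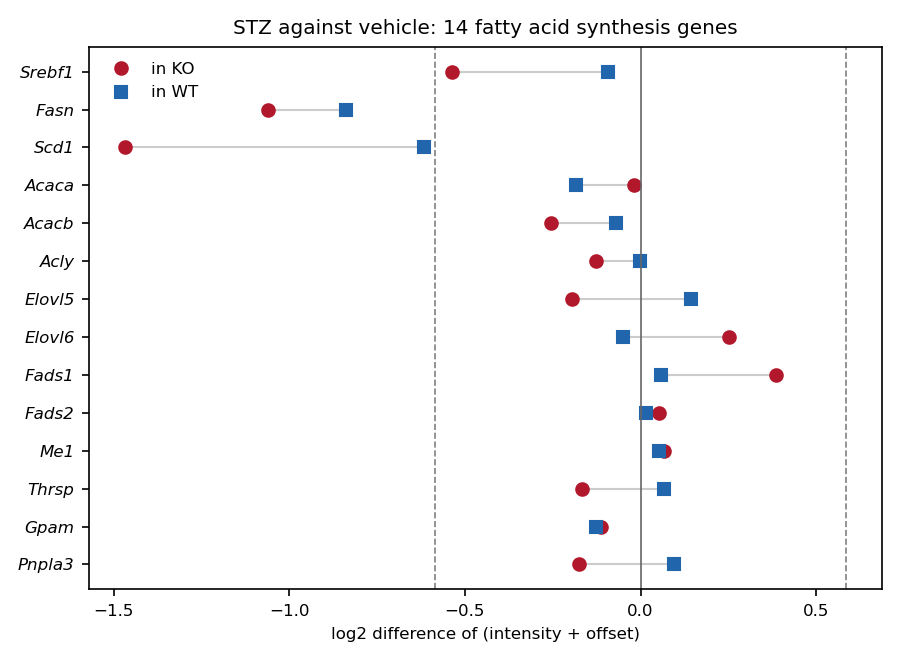
Log2 difference of (intensity + 3.69) between STZ and vehicle for 14 fatty acid synthesis genes in KO (circles) and WT (squares), with dashed lines at 1.5-fold. Fasn and Scd1 lie past the line in both genotypes, and the other 12 genes do not.

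Markers of other cell types also differed between the arrays. Of 10 adipocyte markers, 8 were measured and 7 passed the level filter. Their median STZ difference was -0.52 in KO and 0.046 in WT. In KO 6 of 7 were below 0, as were 7553 of all 13258 genes. There 2 of 7 were at least 1.5-fold lower, against 0.656% of all genes. For KO against WT their median was -0.43 under STZ and 0.081 under vehicle. Under STZ 6 of 7 were below 0, as were 7703 of all 13258 genes. There 2 of 7 were at least 1.5-fold lower, against 2.81% of all genes. The difference between the STZ effects had a median of -0.61 for these markers. In it 4 of 7 were at least 1.5-fold lower, against 3.91% of all genes. Adipoq had an intensity of 12.1 in KO STZ, 18.9 in KO vehicle, 17.5 in WT STZ and 14.8 in WT vehicle. The summed intensity of the 8 markers, most of it from Car3 and Fabp4, which muscle also expresses, was 6126 in KO STZ, 6193 in KO vehicle, 6583 in WT STZ and 6154 in WT vehicle. Of 10 Schwann cell and myelin markers, 7 were measured, with a summed intensity of 219.7 in KO STZ, 228.1 in KO vehicle, 226.7 in WT STZ and 265.9 in WT vehicle. Pmp22, which is not limited to these cells, made up most of that sum, at 152.5 in KO STZ, 172.5 in KO vehicle, 164.5 in WT STZ and 202.6 in WT vehicle. For STZ in KO the list median ran the other way from the sum, at 0.22, with values above 0 in 4 of the 5 markers that passed the level filter. Over all 13258 genes, 5678 were above 0 there. The 10 macrophage markers summed to 441.8 in KO STZ, 370.4 in KO vehicle, 415.4 in WT STZ and 342.0 in WT vehicle. Lyz2 was the largest part, at 153.4 in KO STZ, 117.0 in KO vehicle, 160.2 in WT STZ and 109.1 in WT vehicle. The macrophage median for STZ was 0.22 in KO and 0.16 in WT. In each, 6 of the 9 that passed the level filter were above 0, as were 5678 (KO) and 6831 (WT) of all 13258 genes. Of 9 fibroblast markers 8 were measured, and 3 were past 1.5-fold higher in KO against WT both under STZ and under vehicle, where 0.845% and 0.581% of all genes were. These were the collagen genes Col1a1 (0.92 under STZ and 0.76 under vehicle), Col1a2 (0.75 and 0.68) and Col3a1 (0.76 and 0.64), while the list median was 0.031 under STZ and 0.18 under vehicle. The fibroblast markers summed to 3864 in KO STZ, 3796 in KO vehicle, 3469 in WT STZ and 3209 in WT vehicle. All 10 endothelial markers were measured, and their median was -0.23 for STZ in KO and 0.17 for STZ in WT. For KO against WT the endothelial median was -0.030 under STZ and 0.21 under vehicle, with 5 of 10 and 9 of 10 above 0. Of all 13258 genes, 5540 were above 0 under STZ and 6512 under vehicle. The endothelial median of the difference between the STZ effects was -0.34. The endothelial sum was 787.3 in KO STZ, 849.9 in KO vehicle, 730.6 in WT STZ and 716.4 in WT vehicle. Cdh5 was the largest part of it, at 364.8 in KO STZ, 358.8 in KO vehicle, 288.4 in WT STZ and 314.9 in WT vehicle. No marker of these 5 lists was at 0 on any array. The part of these cells in the values of Hsd17b7, Srebf1, Npc1, Fasn, Scd1 and the 7 genes was not tested.

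The pattern most like that of Cyp51, the member with the widest range (0.62), was sought as the root mean square distance over the 4 arrays between log2 values less each gene's mean. Outside the gene lists, the nearest were Slc35f5 (0.027), Exoc8 (0.028), Tmem45b (0.029), Hddc2 (0.034) and Alg12 (0.034). Slc35f5 had an intensity of 58.9 in KO STZ, 70.2 in KO vehicle, 86.4 in WT STZ and 54.1 in WT vehicle. The nearest other member was Srebf2, at 0.20, and 3055 of 13136 genes were as near or nearer. Sqle was the farthest member, at 0.42.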

How the data were processed

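Per the labels, biotin-labelled cRNA from 4 ug of total RNA was hybridised to Affymetrix arrays. The deposited table holds 1 linear intensity per transcript cluster and array, for 41345 clusters and 4 arrays. The sources used here do not state how the authors corrected, summarised and normalized these intensity values. Of the clusters, 23521 had 1 gene symbol, 1814 several and 16010 were not listed. A gene was read by its brightest single-symbol cluster. Values were turned into log2(intensity + 3.69). Array log2 medians lay within 0.035, inside a limit of 0.1, so no scaling was applied. Genes whose mean over the arrays exceeded the cluster median were kept as background (13258 of 22180). Called means at least 1.5-fold. No test was run.

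The members and gene lists were chosen with earlier results of these data known. The genes named are the 7 measured members, Klf15, Srebf1, genes of the pathway lists (not of the marker lists) at least 1.5-fold different in any comparison and the 5 genes nearest in pattern. Some genes that the rule names by symbol whatever their value were not analysed here. Marker genes and other exceptions were named after their values were seen. Other settings were quantile normalization, median scaling, loess, an offset of 1 or at percentile 50, the mean of a gene's clusters, no level filter and one at percentile 75. The counting was tested on simulated data, with changes larger than 1.5-fold planted in bright genes only. That check does not cover dim genes such as Sqle and Cyp51, or changes near 1.5-fold. Python 3.11.15, numpy 2.4.6, pandas 2.3.3 and statsmodels 0.14.6 were used.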

Additional observations from a re-analysis of the deposited data

Results flagged for a closer look

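Of the 7 genes, 5 stood on opposite sides of 0 for STZ against vehicle in KO and in WT, or for KO against WT under STZ and under vehicle. The difference between the STZ effects (KO less WT) was 0.83 for Sqle, -0.79 for Cyp51, -0.41 for Fdft1, -0.25 for Srebf2 and 0.17 for Hmgcs1 on the log2 scale. With 1 array per group none of these differences was tested. Over all 13258 genes, 63.2% met the same condition on signs, so 5 of 7 is near that share. The KO against WT value of Srebf2 under vehicle (0.0046) turned to -0.0021 under median scaling.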

How the results depend on the processing

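Over 8 alternatives the median of the 7 genes ranged from -0.16 to -0.093 for STZ in KO, from -0.076 to 0.024 for STZ in WT, from -0.19 to -0.077 for KO against WT under STZ and from -0.084 to -0.046 under vehicle. The difference between the STZ effects had a median of 0.0086 under quantile normalization, against -0.12 as reported. An offset of 1 gave 1 member at least 1.5-fold higher for STZ in KO (0 as reported), and 2 lower under STZ (1 as reported) and 1 lower under vehicle (0 as reported) for KO against WT. The offset at percentile 50 gave 0 higher for STZ in WT and 0 lower for KO against WT under STZ. Quantile normalization and loess also gave 0 lower for KO against WT under STZ. With the level filter at percentile 75, which leaves 4 members, there were 0 higher for STZ in WT and, for the difference between the STZ effects, 0 higher and 0 lower. The causes of these moves were not tested, apart from the members lost to the filter. Of 265 values of single members, 21 moved by over 0.1. These 265 include settings that could not move them. They are the mean of a gene's clusters, as each member has 1 cluster, and the changes of level filter. The mean of clusters and the absence of a filter also could not move the medians or counts of the 7 genes.

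Over all genes, higher calls made up 23.1% of calls for KO against WT under STZ (112 higher, 372 lower), against 38.9% under quantile normalization (155 and 243) and 34.3% under loess (133 and 255). For STZ in WT the share was 74.1% (169 and 59), against 63.9% under quantile normalization (122 and 69). For the difference between the STZ effects it was 31.0% (233 and 519), against 43.9% under quantile normalization (289 and 369) and 19.9% with the level filter at percentile 75 (84 and 338). The numbers of calls were larger with an offset of 1: 144 higher and 168 lower for STZ in KO (59 and 87 as reported), 258 and 120 for STZ in WT, 211 and 500 for KO against WT under STZ, 141 and 176 under vehicle (77 and 103 as reported), and 454 and 748 for the difference between the STZ effects. With the offset at percentile 50 they were 33 and 54 for STZ in KO, 71 and 310 for KO against WT under STZ, 47 and 78 under vehicle, and 149 and 415 for the difference. With the filter at percentile 75, which tests fewer genes, they were 23 and 47 for STZ in KO, 118 and 33 for STZ in WT, 54 and 294 for KO against WT under STZ, and 38 and 58 under vehicle. No paired analysis was possible because each group has 1 array. Dim genes such as Sqle, Cyp51 and Lss lie near the median intensity, where the offset has most weight. Their precision was not measured.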
